A study of Mus musculus with 6 samples.

Results

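The genes described here are the collagen genes, taken as every row of a mouse liver RNA-seq table whose symbol is Col, a number, a and a number. They were 43 of the 17975 genes in the table. Whole liver was sequenced from 3 Hom mice, the hepatocyte Nek7 knock-out of genotype NEK7 fl/fl with Alb-Cre, and from 3 mice labelled WT. The Cre is driven by the albumin promoter, so the deletion is directed to hepatocytes, and whether other liver cells kept the gene cannot be read from whole tissue. The study draws its WT mice as littermates with the floxed allele or Alb-Cre alone, and which of these the sequenced WT mice were is not given in the sources used here, nor is their age. The comparison asks which collagen chains differed between livers with and without hepatocyte Nek7, in a study of liver fibrosis.

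Collagens are the main structural proteins of the extracellular matrix, built from chains wound around each other into a helix. Fibrillar collagens I, III and V form the banded fibres of scar tissue, collagen IV forms the sheet of basement membranes, collagen VI forms beaded microfilaments, FACIT collagens sit on the surface of fibrils, and the multiplexins XV and XVIII lie in or beside basement membranes. In liver, stellate cells and portal fibroblasts make most fibrillar collagen when they turn into myofibroblasts, whereas hepatocytes are a known source of collagen XVIII, whose C-terminal fragment is endostatin.

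Each library held 19349418 to 19730236 counts. Values below are CPM, the counts scaled to a common library size after TMM correction, where TMM allows for a library being taken up by a few very abundant genes. The TMM factors were 0.806 to 0.924 in WT and 1.09 to 1.23 in Hom livers. With library size alone the median log2 fold change of all 13805 tested genes moved from -0.0018 to 0.45, so directions that turned under that scaling are named where they occur. Nek7 was at 62.9, 69.1 and 63.7 CPM in WT replicates 1, 2 and 3 and at 14.5, 18.1 and 16.7 CPM in Hom replicates 1, 2 and 3, with no overlap (log2 fold change -1.99, SE 0.10, edgeR adjusted p = 1.59e-04). The hepatocyte list was abundant in every liver, with Alb and the 14 other markers summing to 162980 to 194140 CPM in WT and 66970 to 88221 CPM in Hom livers. Hom replicate 1 stood apart on the Y chromosome, with 0 counts of Ddx3y and of Kdm5d, 149 of Uty and 4 of Eif2s3y, where the other 5 livers had 243 or more of each. Sex is not given in the labels, and the paper states that its knock-out experiments used mice of both sexes. Any part of sex in the values of this liver cannot be told apart and was not tested. Without Hom replicate 1 the same 24 collagen genes passed the test. Collagen results that rest on this liver or on WT replicate 3 are also given without it.

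Of the 43 collagen genes, 32 had enough counts to be tested, and by edgeR's quasi-likelihood test, with a threshold of 0.05 on the adjusted p, 19 rose and 5 fell in Hom livers. Over all genes tested, 21.5% were higher (2974 genes) and 20.1% were lower (2780 genes). With library size alone the split was 6574 higher and 642 lower over all genes and 20 higher and 1 lower among the collagens, and with upper-quartile factors it was 3477 and 2060 over all genes and 19 and 5 among the collagens. Every Hom liver lay above every WT liver for 20 of the 32 tested collagens, against 28.7% of all genes, and under every WT liver for 5, against 27.0%. Of the 19 higher genes 18 had a log2 fold change of 1 or more, a size and call that 13.2% of all tested genes reached. The median log2 fold change was 1.25 for the tested collagens and -0.0018 for all genes tested. With no filter it was 0.79 over all 43 collagens and 0.027 over 17922 genes. A total of 8 collagens passed the filter on low counts through the Hom livers and not in all 3 WT livers (Col4a4, Col4a6, Col6a5, Col6a6, Col8a1, Col8a2, Col9a3 and Col17a1). Among the 24 collagens with at least 10 counts in every liver, 15 were higher and 5 lower, where 20.9% and 19.4% of all genes passing that filter were. In whole tissue, more cells of a type and more RNA per cell cannot be told apart.

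**Figure D1:**
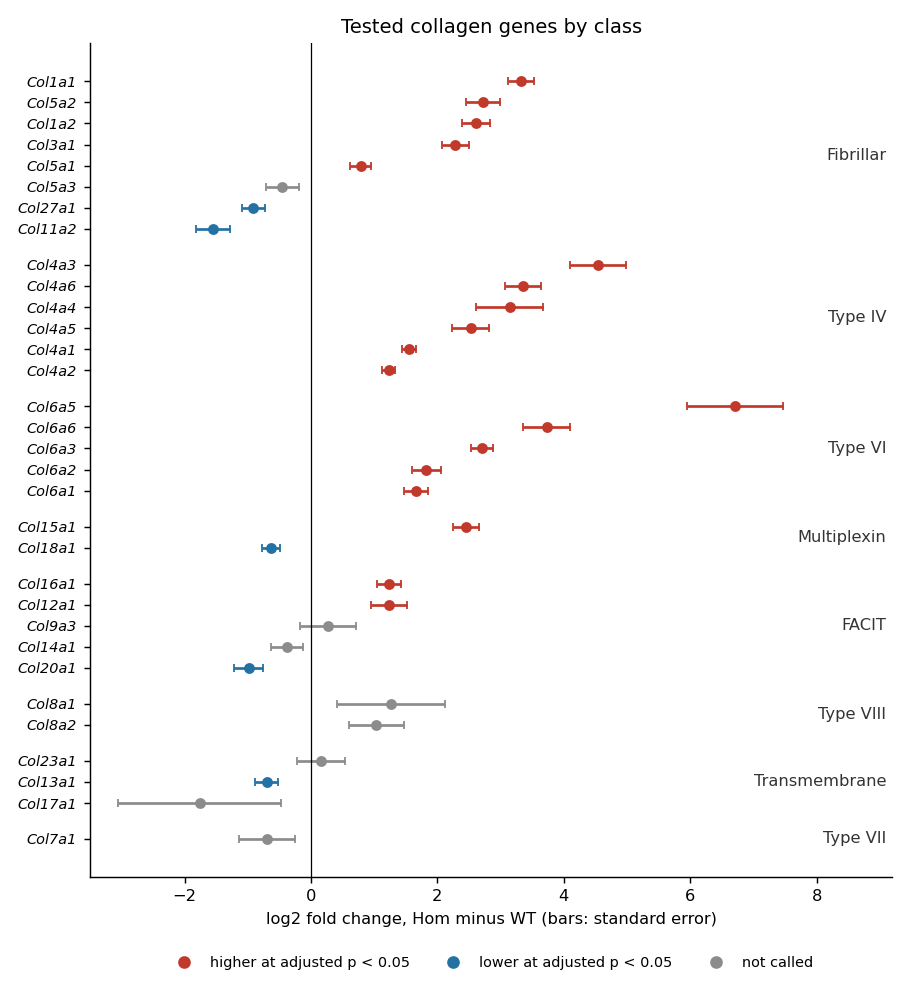
Log2 fold change of each of the 32 tested collagen genes, Hom minus WT, with its standard error, grouped by class. All type IV and all tested type VI chains lie to the right of 0, from 1.23 (Col4a2) to 6.70 (Col6a5), while the fibrillar, multiplexin and FACIT classes hold genes on both sides. Col4a4, Col4a6, Col6a5 and Col6a6 passed the filter on low counts through the Hom livers.

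The chains of collagens I, III and V, the fibres of scar tissue, rose in Hom livers except for Col5a3. Col1a1, the main chain of collagen I (GRCm38 chr11:94936224-94953042), was at 13.0, 12.3 and 20.2 CPM in WT and at 152, 140 and 161 CPM in Hom livers. The lowest Hom liver was far above the highest WT liver, and the mean rose 9.98-fold (log2 fold change 3.32, SE 0.20, edgeR adjusted p = 0.0002). Col1a2, the partner chain in collagen I (chr6:4504814-4541544), was at 16.1, 13.0 and 24.3 CPM in WT and 104, 104 and 117 CPM in Hom livers, a 6.09-fold rise (SE 0.22 on the log2 scale, edgeR adjusted p = 4.88e-04). Col3a1, the single chain of collagen III (chr1:45311538-45349706), was at 33.8, 23.4 and 34.9 CPM in WT and 115, 158 and 176 CPM in Hom livers, a 4.88-fold rise (SE 0.21, edgeR adjusted p = 6.03e-04). For these 3 genes the groups did not overlap, and WT replicate 3 was the highest WT liver for each.

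Collagen V starts and limits the width of collagen I fibrils, and its chains did not move alike. Col5a2 was at 3.29, 2.50 and 5.47 CPM in WT and 23.2, 22.4 and 28.8 CPM in Hom livers (log2 fold change 2.72, SE 0.28, edgeR adjusted p = 7.90e-04). Col5a1 was at 14.4, 11.3 and 9.16 CPM in WT and 20.1, 18.7 and 21.3 CPM in Hom livers, the smallest change among the 19 higher genes (log2 fold change 0.79, SE 0.17, edgeR adjusted p = 0.0104). Neither gene had overlapping groups. Col5a3 was at 68.5, 52.5 and 62.3 CPM in WT and 27.1, 50.3 and 56.2 CPM in Hom livers, with overlap, and its log2 fold change of -0.46 (SE 0.26, edgeR adjusted p = 0.196) turned to 0.0099 with library size alone.

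Col27a1 and Col11a2, which are also classed as fibrillar, fell. Col27a1, a collagen best known from cartilage, was at 31.3, 45.7 and 41.8 CPM in WT and 16.8, 23.4 and 22.8 CPM in Hom livers, with no overlap (log2 fold change -0.91, SE 0.18, edgeR adjusted p = 0.00788), and kept its sign but not its call with library size alone (-0.44, edgeR adjusted p = 0.0842). Col11a2, a chain of collagen XI, was low in both groups, at 2.68, 1.99 and 1.97 CPM in WT and 0.70, 0.866 and 0.690 CPM in Hom livers (log2 fold change -1.55, SE 0.27, edgeR adjusted p = 0.00504). It was the 1 collagen called lower with library size alone, and the 1 among the 5 lower collagens that fell by more than 1 on the log2 scale. Col11a1, Col24a1 and Col2a1 were not tested, their highest counts in any liver being 9, 9 and 8.

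Promoter sequence from RefSeq (GRCm38.p6) was given for 34 collagen genes with 37 start sites. The letters GGGCGG, the core of the site read by Sp1-type factors, were found on either strand in the 250 bases before 22 of the 37 collagen starts (59.5%), against 32.7% of all 32851 starts. CCAAT was found before 13 (35.1%, against 33.9%), TATAAA before 5 (13.5%, against 12.4%) and CAGAC, a short Smad-type element, before 16 (43.2%, against 42.2%). No motif contains another, though matches may share bases. Such matches are descriptions of the window and say nothing of a factor being bound. Split by call, GGGCGG stood before 10 of 16 starts of higher genes and 3 of 6 of lower genes, and CCAAT before 5 and 1. TATAAA stood before 1 and 2, the 1 being Col3a1, and CAGAC before 7 and 3. A link between a motif and the direction of change was not tested. The stretches before Col1a2 and Col3a1 are shown because both genes are called higher and the motifs before them differ, and capitals mark the motifs. For Col1a2 the stretch (chr6:4505370-4505492, plus strand) is the longest part of the 250 bases that is clear of annotated collagen exons. It lies before the RefSeq start at 4505618 and inside the GENCODE gene given above, which begins further upstream at 4504814, and for Col3a1 it is all 250 bases (chr1:45311288-45311537, plus strand).
Col1a2: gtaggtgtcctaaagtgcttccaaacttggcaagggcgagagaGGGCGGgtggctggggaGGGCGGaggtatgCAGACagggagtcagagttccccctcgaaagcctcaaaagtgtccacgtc
Col3a1: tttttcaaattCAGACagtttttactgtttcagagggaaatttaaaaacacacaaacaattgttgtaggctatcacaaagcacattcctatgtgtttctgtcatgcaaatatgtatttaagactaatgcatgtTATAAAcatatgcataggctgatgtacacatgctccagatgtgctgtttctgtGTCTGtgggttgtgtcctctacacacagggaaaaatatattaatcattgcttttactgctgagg
The Col1a2 stretch was 59.4% G and C and held GGGCGG starting 205 and 188 bases before the start site and CAGAC at 175. The Col3a1 stretch was 35.2% G and C and held TATAAA at 117 bases, CAGAC at 239 and its reverse GTCTG at 64, with no GGGCGG.

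All 6 chains of collagen IV, the sheet-forming collagen of basement membranes, were higher in Hom livers. Of these, Col4a4 and Col4a6 passed the filter on low counts through the Hom livers. Both were untested where each liver had to hold 10 counts. Col4a1, which with Col4a2 makes the common collagen IV of vessels and ducts, was at 43.1, 46.1 and 41.9 CPM in WT and 111, 128 and 144 CPM in Hom livers (log2 fold change 1.55, SE 0.11, edgeR adjusted p = 3.16e-04). Col4a2 had a log2 fold change of 1.23 (edgeR adjusted p = 4.09e-04). Both were clearly expressed before the change, and neither had overlapping groups.

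The 4 chains with a narrower tissue range, which kidney and some epithelial basement membranes carry, started near the detection limit. Col4a3 was at 0.949, 1.15 and 1.11 CPM in WT and 40.9, 18.2 and 15.9 CPM in Hom livers (log2 fold change 4.54, SE 0.45, edgeR adjusted p = 7.28e-04). Hom replicate 1 carried the most, and without it the log2 fold change was 3.99. Col4a4, its partner, was at 1.34, 0.641 and 0.369 CPM in WT and 10.8, 6.10 and 4.22 CPM in Hom livers (log2 fold change 3.14, SE 0.53, edgeR adjusted p = 0.00452), with replicate 1 highest again. Its log2 fold change was 2.70 without that liver and 3.79 without WT replicate 1, the highest WT liver. Col4a5 had a log2 fold change of 2.52 (edgeR adjusted p = 0.00112), from 1.17 to 2.29 CPM in WT to 8.03 to 11.7 CPM in Hom livers. Col4a6 had 4, 5 and 4 counts in WT and 54, 72 and 63 counts in Hom livers, a 10.5-fold higher rate over the summed counts with an exact 95% interval of 6.0 to 20.1 (log2 fold change 3.35 in the fit, edgeR adjusted p = 4.94e-04). Such intervals cover counting error only.

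The type IV genes lie in head-to-head pairs, and the members of each pair moved in the same direction. In GENCODE M21, Col4a1 and Col4a2 on chromosome 8 start 21 bases apart and overlap by 22 bases, and Col4a5 and Col4a6 on chromosome X are 1308 bases apart. Strand-specific counting is not stated for the deposited counts, so reads from the overlap of Col4a1 and Col4a2 cannot be assigned to either gene. Col4a3 and Col4a4 on chromosome 1 are separated by 71 bases, shown here because this short stretch is all that lies between the start sites of a pair that rose together (chr1:82586850-82586920, minus strand, as read towards Col4a4).
Col4a4: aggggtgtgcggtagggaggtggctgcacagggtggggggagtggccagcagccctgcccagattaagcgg
It was 69.0% G and C and held none of the 4 motifs searched. Other neighbours were further apart: Col3a1 and Col5a2 by 24614 bases on chromosome 1, and Col6a5 and Col6a6 by 27917 bases on chromosome 9.

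The 5 tested chains of collagen VI, the microfilament collagen that links fibres to cells, were all higher in Hom livers. Of these, Col6a5 and Col6a6 passed the filter on low counts through the Hom livers alone, so their direction was set by the filter. They were untested where each liver had to hold 10 counts. Col6a3, the long chain of the usual trimer, was at 10.4, 9.75 and 10.6 CPM in WT and 53.9, 62.0 and 84.9 CPM in Hom livers (log2 fold change 2.71, SE 0.18, edgeR adjusted p = 2.58e-04). Its partners Col6a1 and Col6a2 had log2 fold changes of 1.67 (edgeR adjusted p = 0.00117) and 1.83 (edgeR adjusted p = 0.00145). Hom livers ranked differently for these partners than for Col6a3: Hom replicate 1 was highest for Col6a1 and Col6a2, at 1.49 and 1.59 times the mean of the other Hom livers, and lowest for Col6a3, at 0.734 times that mean.

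Col6a5 and Col6a6, which can stand in for Col6a3 in the trimer, were close to absent in WT livers. Col6a5 had 4 counts summed over WT and 605 summed over Hom livers, in CPM 0.168, 0 and 0.0614 against 15.3, 6.47 and 5.22, with no overlap. The rate over summed counts was 109-fold higher, with an exact 95% interval of 42.5 to 402 (log2 fold change 6.70 in the fit, edgeR adjusted p = 0.00113). Hom replicate 1 was again highest, and without it the fitted log2 fold change was 6.08. Without WT replicate 1, which held most of the WT counts, it was 7.90. Col6a6 had 2, 5 and 3 counts in WT and 62, 63 and 65 counts in Hom livers, a 13.7-fold higher rate with an interval of 7.30 to 29.1 (log2 fold change 3.73 in the fit, edgeR adjusted p = 7.54e-04). Col6a4 had a single count in WT replicate 1 and was not tested.

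**Figure D2:**
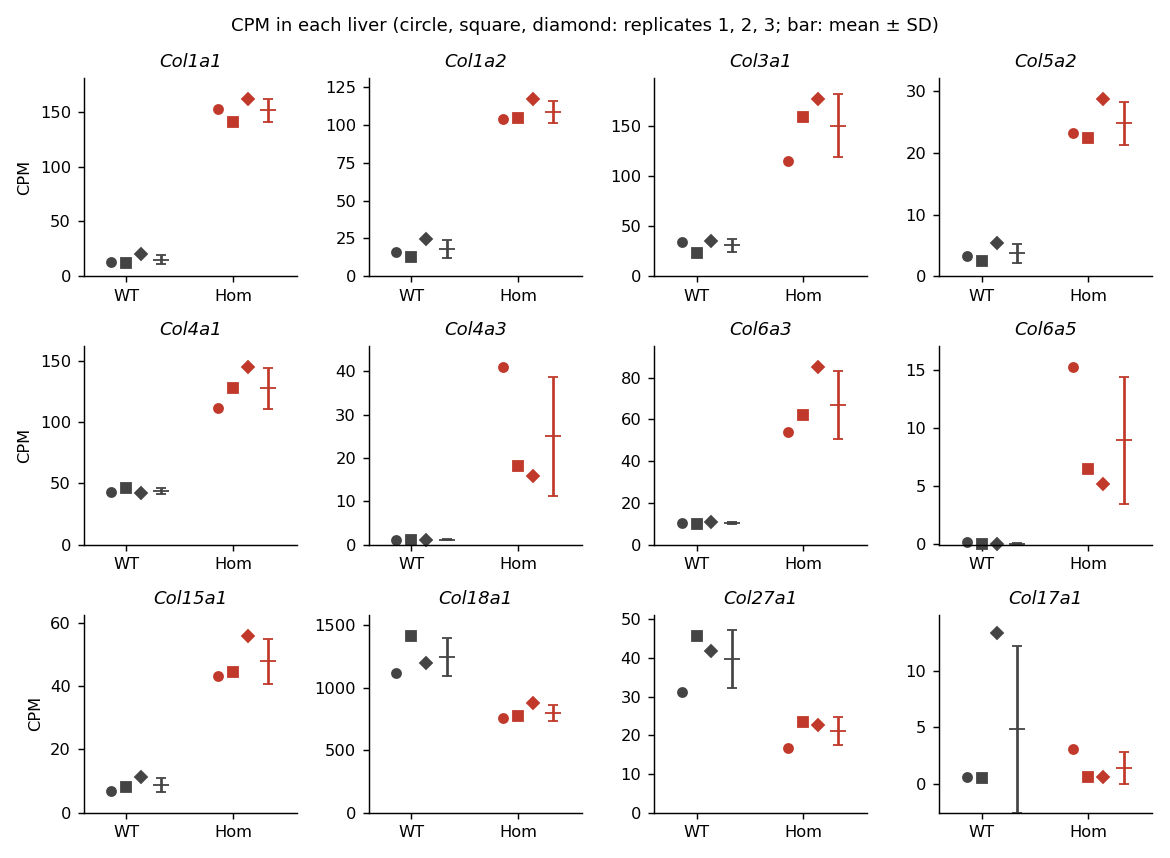
CPM of 12 collagen genes in each WT (grey) and Hom (red) liver, with the group mean and SD beside the points. The groups are apart in 11 panels, with Col18a1 and Col27a1 lower in Hom livers, and Col17a1 is set by WT replicate 3 at 13.3 CPM.

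The multiplexins moved in opposite directions. Col15a1, a basement membrane zone collagen of vessels and stromal cells, was at 6.81, 8.08 and 11.3 CPM in WT and 43.1, 44.4 and 55.9 CPM in Hom livers (log2 fold change 2.45, SE 0.20, edgeR adjusted p = 4.65e-04). Col18a1, the most abundant collagen of these livers, was at 1119, 1414 and 1199 CPM in WT and 756, 772 and 874 CPM in Hom livers (log2 fold change -0.64, SE 0.15, edgeR adjusted p = 0.0135). The groups did not overlap for either gene. The call for Col18a1 was lost with library size alone (log2 fold change -0.17, edgeR adjusted p = 0.343) and without Hom replicate 2 (-0.61, edgeR adjusted p = 0.0537), with the sign kept. Beside it, 12 of 15 hepatocyte markers were lower and none higher (median log2 fold change -0.99), against 20.1% and 21.5% of all genes tested. Whether the fall of Col18a1 belongs to that shift was not tested.

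On TPM, which divides by gene length and scales each library to 1 total without TMM factors, Col18a1 stood at 318 ± 25.0 in WT and 316 ± 39.6 in Hom livers (SD, n = 3), rank 1 of the 43 collagens in both. The ranks below it changed. In WT livers the next levels were Col5a3 at 14.7 ± 3.48 TPM, Col14a1 at 13.3 ± 5.07 TPM and Col4a1 at 9.60 ± 1.03 TPM, and the first 2 of these were within their SD of each other. In Hom livers they were Col3a1 at 60.8 ± 16.0 TPM, Col1a1 at 57.0 ± 4.73 TPM and Col1a2 at 46.5 ± 5.11 TPM, again within an SD for the first 2. Col1a1 moved from rank 10 to rank 3 and Col3a1 from rank 6 to rank 2.

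Read by its share of all collagen counts, Col18a1 took 73.8%, 79.7% and 74.6% in WT, against 43.7%, 43.4% and 43.5% in Hom livers. The 3 Hom livers differed by less than 1 percentage point, and a share within a library does not depend on the scaling. The fibrillar class took 9.19% to 12.6% in WT and 26.6% to 29.2% in Hom livers, type IV 4.62% to 5.14% and 13.0% to 13.9%, and type VI 1.59% to 2.16% and 7.30% to 9.34%. None of these ranges overlapped. Summed over the 43 genes, collagen CPM was 1515 to 1775 in WT and 1729 to 2010 in Hom livers. These ranges overlap, whereas with library size alone the sums did not, at 1343 to 1430 in WT and 1878 to 2405 in Hom livers. Without Col18a1 the sum was 361 to 408 CPM in WT and 973 to 1137 CPM in Hom livers, and with library size alone 291 to 366 and 1057 to 1360.

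**Figure D3:**
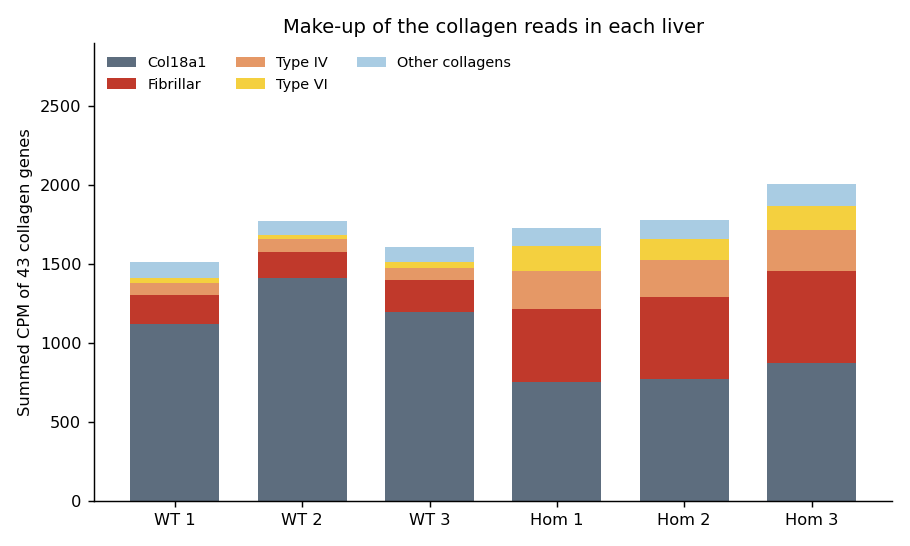
Summed CPM of the 43 collagen genes in each liver, split into Col18a1, the fibrillar, type IV and type VI classes and all others. Col18a1 makes up 73.8% to 79.7% of each WT bar and 43.4% to 43.7% of each Hom bar.

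FACIT collagens, which coat fibrils, split. Col12a1 and Col16a1 were higher, with log2 fold changes of 1.23 (edgeR adjusted p = 0.0137) and 1.24 (edgeR adjusted p = 0.00316). Col20a1 was lower, at 8.71, 6.54 and 6.14 CPM in WT and 2.71, 3.67 and 4.40 CPM in Hom livers (log2 fold change -0.99, SE 0.24, edgeR adjusted p = 0.0157), a call lost with library size alone (-0.54, edgeR adjusted p = 0.153) and without Hom replicate 2 (edgeR adjusted p = 0.0508). Col14a1, the most abundant FACIT gene here, was at 72.8, 57.7 and 41.3 CPM in WT and 31.7, 49 and 51.4 CPM in Hom livers, and the groups overlapped (log2 fold change -0.38, SE 0.25, edgeR adjusted p = 0.256, turning to 0.077 with library size alone). Col9a3 had a log2 fold change of 0.27 (edgeR adjusted p = 0.656), which turned to -0.0065 without WT replicate 2. Col22a1, Col9a1 and Col9a2 were not tested, with highest counts of 17, 4 and 9.

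Among transmembrane collagens, Col13a1 was lower, at 4.30, 5.00 and 4.73 CPM in WT and 3.08, 2.56 and 2.97 CPM in Hom livers (log2 fold change -0.70, SE 0.18, edgeR adjusted p = 0.0191). Its groups did not overlap, but its call was lost in 7 of the alternatives. Among them were the minimum absolute log2 fold change of 1, library size alone (-0.25, edgeR adjusted p = 0.291) and the replicate block (-0.71, edgeR adjusted p = 0.0622). Col17a1, the hemidesmosome collagen of epithelia, was at 0.670, 0.513 and 13.3 CPM in WT and 3.08, 0.618 and 0.603 CPM in Hom livers. It was high in WT replicate 3 alone among the WT livers, and its log2 fold change of -1.76 (SE 1.29, edgeR adjusted p = 0.304) turned to 1.24 without that liver. Col23a1 had a log2 fold change of 0.16 (edgeR adjusted p = 0.761), which turned to -0.11 without WT replicate 1. Col25a1 was not tested, with a highest count of 11.

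The network collagen Col8a1, a vessel wall collagen, was at 0.391, 0.321 and 4.06 CPM in WT and 4.29, 2.84 and 4.31 CPM in Hom livers. WT replicate 3 lay with the Hom livers, and the log2 fold change of 1.26 (SE 0.86, edgeR adjusted p = 0.270) became 3.39 without it (edgeR adjusted p = 0.00291). Its partner Col8a2 had a log2 fold change of 1.03 (edgeR adjusted p = 0.0971), called with library size alone (1.47, edgeR adjusted p = 0.0219). Col7a1, the anchoring fibril collagen, was at 1.23, 0.706 and 1.29 CPM in WT and 1.03, 0.412 and 0.560 CPM in Hom livers, with overlap (log2 fold change -0.70, SE 0.44, edgeR adjusted p = 0.239). Col10a1, Col26a1 and Col28a1 were not tested. Their highest counts were 13, in WT replicate 3, 8, in WT replicate 1, and 72, in Hom replicate 1, where the other Hom livers had 6 and 11 counts of Col28a1.

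Ratios of chains within a liver do not depend on library scaling, and 7 were compared by an exact two-sided permutation test over the livers, for which 0.1 is the smallest p that 3 against 3 allows. Col1a1 to Col1a2 was 0.809, 0.941 and 0.831 counts per count in WT and 1.46, 1.34 and 1.38 in Hom livers. Col3a1 to Col1a1 was 2.60, 1.91 and 1.73 in WT and 0.755, 1.13 and 1.09 in Hom livers. Col4a1 to Col4a2 was 1.44, 1.45 and 1.33 in WT and 1.67, 1.82 and 1.77 in Hom livers. The groups did not overlap for any of these 3 ratios, the first and last of which set partner chains of 1 collagen against each other. Nor did they overlap for Col5a2 to Col5a1 (0.222 to 0.597 in WT, 1.16 to 1.35 in Hom), Col1a1 to Col4a1 (0.266 to 0.482, 1.10 to 1.37) or Col1a1 to Col18a1 (0.00866 to 0.0169, 0.182 to 0.201). Each of these 6 had a permutation p of 0.1, adjusted over the 7 ratios to 0.117, so none passed 0.05. Col6a1 to Col6a2 overlapped, at 1.36 to 1.56 in WT and 1.25 to 1.39 in Hom livers (exact permutation p = 0.2).

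The Hom livers were not in 1 order across the 19 higher collagens. Hom replicate 3 was highest for 10 genes, replicate 1 for 7 and replicate 2 for 2, and replicate 1 was also lowest for 9. Relative to the mean of the other Hom livers, replicate 1 held 2.61 times as much Col6a5, 2.40 times as much Col4a3 and 2.10 times as much Col4a4. For Col4a5 and Col3a1 it held 0.685 and 0.688 times that mean. The spread among Hom livers was therefore not a common shift of all collagens. In replicate 1 Col4a3 and Col4a4 were both above the mean of the other Hom livers, and Col4a1 and Col4a2 both under it (0.816 and 0.878 times). Col6a1 and Col6a2 were above it and Col6a3 under it.

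**Figure D4:**
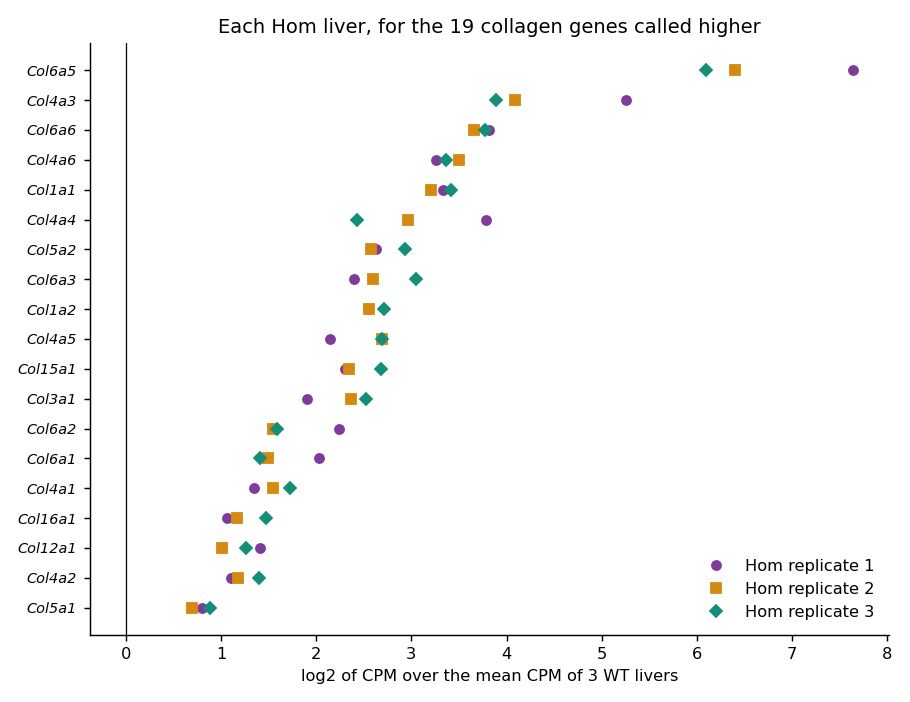
Log2 of the CPM in each Hom liver over the mean CPM of the 3 WT livers, for the 19 collagen genes called higher. Hom replicate 1 (purple) lies to the right for Col6a5, Col4a3, Col4a4, Col6a1 and Col6a2 and to the left for Col4a5, Col3a1 and Col6a3.

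The enzymes and chaperones that make procollagen in the endoplasmic reticulum did not move as a block. Of 25 listed, 24 were tested, with 10 higher (41.7%), 5 lower and a median log2 fold change of -0.013. This stands against 21.5% of all genes higher and 20.1% lower, and the 5 lower are near the latter share. The smallest adjusted p values were those of Colgalt1, which adds galactose to hydroxylysine (62.9, 66.1 and 69.7 CPM in WT, 129, 111 and 107 CPM in Hom, log2 fold change 0.81, edgeR adjusted p = 0.0014), of Plod2, the lysyl hydroxylase of the telopeptides (1.17, 1.54 and 0.553 CPM against 7.09, 6.39 and 6.08 CPM, 2.58, edgeR adjusted p = 0.00178), and of Serpinh1, the collagen chaperone HSP47 (16.5, 11.8 and 18.5 CPM against 36.4, 41.7 and 50.7 CPM, 1.46, edgeR adjusted p = 0.00179). Among the lower genes, the cyclophilin Ppib fell by 0.63 on the log2 scale, the retrieval receptor Kdelr2 by 0.48, the protein disulfide isomerase P4hb by 0.46, the export factor Mia3 by 0.33 and the lysyl hydroxylase Plod1 by 0.22. With library size alone none of the 5 was called, and Mia3 and Plod1 turned to 0.12 and 0.23. The calls of P4hb and Plod1 were also lost with upper-quartile factors (edgeR adjusted p = 0.0755 and 0.185), with the replicate block (0.0769 and 0.0975) and without single livers, that of Plod1 with DESeq2 as well (adjusted p = 0.0549), and those of Mia3 and Kdelr2 without Hom replicate 2 (edgeR adjusted p = 0.0722 and 0.0669).

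Outside the cell, of 20 genes for the trimming, cross-linking and binding of fibrils 19 were in the table and 15 tested. Of these 8 were higher (53.3%) and 2 lower, with 1.14 as the median log2 fold change. Over all genes tested 21.5% were higher and 20.1% lower, and the 2 lower are under that share. Loxl1, a lysyl oxidase that cross-links fibres, was at 2.35, 3.27 and 2.77 CPM in WT and 21.0, 19.2 and 21.9 CPM in Hom livers (log2 fold change 2.89, SE 0.15, edgeR adjusted p = 1.59e-04). The fibril-binding proteoglycans Lum and Bgn had log2 fold changes of 2.48 (edgeR adjusted p = 1.07e-04) and 1.28 (edgeR adjusted p = 3.75e-04). The procollagen C-proteinase Bmp1 fell by 0.58 on the log2 scale and the C-proteinase enhancer Pcolce2 by 1.26 (edgeR adjusted p = 0.00666 and 0.00976), and both calls were lost with library size alone. The other enhancer of the list, Pcolce, named after its values were seen, rose from 11.8, 9.75 and 8.54 CPM in WT to 28.5, 19.6 and 24.5 CPM in Hom livers (log2 fold change 1.27, edgeR adjusted p = 0.00232).

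Among 12 receptors and turnover genes 11 were tested, with 5 higher (45.5%), 1 lower and a median log2 fold change of 0.72. The shares over all genes tested were 21.5% higher and 20.1% lower, and the 1 lower gene is under the latter. Ddr1, a receptor tyrosine kinase that binds collagen, was at 7.26, 5.58 and 7.62 CPM in WT and 40.5, 43.2 and 50.4 CPM in Hom livers (log2 fold change 2.71, SE 0.15, edgeR adjusted p = 1.59e-04). Mrc2, which takes up collagen fragments, and the collagen-binding integrin subunit Itga2 had log2 fold changes of 2.26 (edgeR adjusted p = 3.69e-04) and 2.66 (edgeR adjusted p = 6.03e-04). The integrin subunit Itga10 fell by 1.01 on the log2 scale (edgeR adjusted p = 0.027), a call lost in 8 of the alternatives, library size alone among them.

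**Figure D5:**
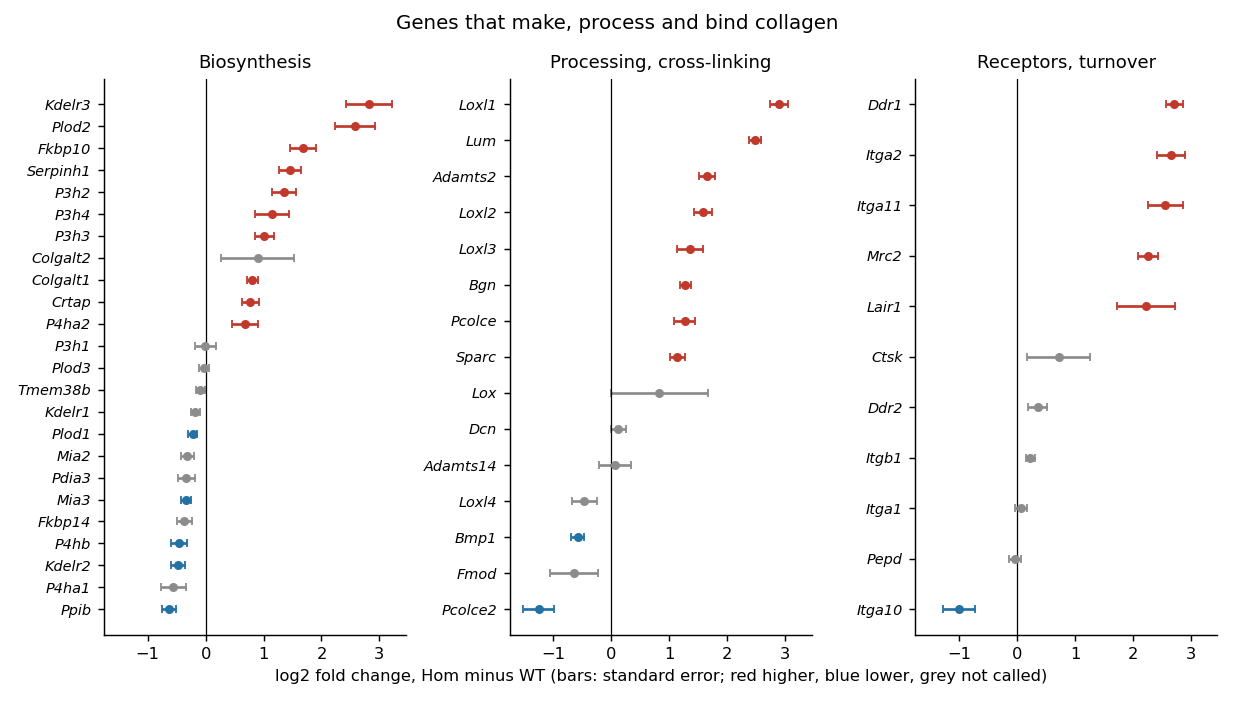
Log2 fold change, Hom minus WT, with its standard error, for the tested genes of procollagen synthesis (24), of processing and cross-linking (15) and of receptors and turnover (11). Genes called higher are red and genes called lower blue, with both colours in all 3 panels.

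Markers of several cell types differed between the groups beside the collagens, and their part in the collagen results was not tested. The counts stand against 21.5% higher and 20.1% lower over all genes. Of 9 tested portal fibroblast markers 7 were higher and none lower (median log2 fold change 1.49), with a summed level of 20.6 to 35.3 CPM in WT and 96.6 to 115 CPM in Hom livers. Of 16 stellate cell and myofibroblast markers 8 were higher and 2 lower (median 0.95), at 220 to 246 CPM and 372 to 402 CPM. The higher ones included Pdgfra, Acta2, Timp1 and Lum, which also stands in the processing list, and the lower ones were Reln and Ngfr, while Lrat, the vitamin A esterase of quiescent stellate cells, had a log2 fold change of -0.22 and was not called. Of 12 cholangiocyte markers 11 were higher and none lower (median 2.89), at 125 to 153 CPM and 828 to 1070 CPM. Of 12 endothelial markers 1 was higher and 6 lower (median -0.53), at 256 to 351 CPM and 202 to 211 CPM. Nearer to those shares, of 13 macrophage markers 4 were higher and 2 lower (median 0.48), at 245 to 601 CPM and 350 to 475 CPM, and of 7 tested lymphocyte markers 2 were higher and none lower (median 1.00), at 6.80 to 10.6 CPM and 9.33 to 16.1 CPM. No listed marker was at 0 in all livers.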

How the data were processed

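RNA from about 100 mg of snap-frozen liver per mouse was sequenced on DNBSEQ. The authors deposited 1 table with, for each of 6 livers, estimated counts, FPKM and TPM per gene. The submitters' processing notes name HISAT2 2.0.4, Bowtie2 2.2.5, RSEM 1.2.12 and mm9, without their roles. Of the deposited expected counts 65.9% were whole as written, with no tolerance, and all were rounded. The deposited FPKM served only to infer gene length, and the deposited TPM only to compare levels between genes. The table's 6 average columns were not used, since those of counts carried the other group's mean in all 17975 rows, within 0.01 counts. Positions and sequences come from GENCODE M21 and RefSeq (GRCm38), not from the table.

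Livers were grouped by the genotype label, 3 WT and 3 Hom. Counts were fitted in edgeR 4.0.16 (R 4.3.3) with TMM factors, filterByExpr (about 0.515 CPM in at least 3 livers) and the quasi-likelihood test, with Benjamini-Hochberg adjustment over all 13805 genes tested and a threshold of 0.05. Chain ratios were compared by exact permutation (scipy 1.17.1). The fit was tested on simulated data (13132 genes tested, 193 changed), where 53.4% of changed and 0.070% of unchanged genes were called. Counts of same-group livers differed by 23.8 to 163 times their sampling variance (chi-square over its degrees of freedom), so no library was counted as a repeat. The labels do not say that replicate numbers link mice.

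Values in every liver are given for Nek7, for collagens I and III, for the most abundant tested gene of each collagen class, for the called collagens with the 5 largest and the 5 smallest log2 fold changes and for those called lower. From each of the 3 other collagen lists the 3 smallest adjusted p values and the genes called lower are named. Cell type markers are given by list, and the few of them named, with Col28a1, were chosen after their values were seen. The members and lists were chosen with earlier results of these data known. Alternatives were DESeq2 1.42.0, library size alone, upper-quartile factors, no filter, at least 10 counts in every liver, the replicate block, a gene length correction, both of these together, a minimum absolute log2 fold change of 1, and leaving out each liver.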

Additional observations from a re-analysis of the deposited data

How the results depend on the processing

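The 19 higher collagens were called under every alternative fit of the whole table that tested them, 4 of them being untested where each liver had to hold 10 counts. With library size alone 6574 genes were higher and 642 lower, and 20 collagens were higher and 1 lower. With a minimum absolute log2 fold change of 1 these were 1825 and 575 genes, and 18 and 1 collagens. Leaving out 1 liver gave 1767 to 2750 lower genes and 2 to 5 lower collagens, the lowest count of collagens being without Hom replicate 2, where Col13a1, Col18a1 and Col20a1 lost their calls. The replicate block gave 2383 higher and 2214 lower genes, and 19 and 4 collagens, Col13a1 being lost (adjusted p = 0.0622). Same-numbered livers did not deviate together (r = -0.11, -0.061 and -0.058 across genes). With 3 livers in a group such values cannot decide whether the numbers link mice. Signs turned for Col14a1 (0.077), Col5a3 (0.0099), Plod1 (0.23) and Mia3 (0.12) with library size alone, and, on leaving out 1 liver, for Col17a1 (-2.97 to 1.24, turned without WT replicate 3), Col23a1 (-0.11 to 0.52, WT replicate 1) and Col9a3 (-0.0065 to 0.69, WT replicate 2). The cause was not tested. Over the 32 tested collagens, 421 repeats kept sign and call, 11 lost the call, 2 gained it and 5 turned. Without a filter Col25a1 was also called lower. Depth limits Col4a6, Col6a5 and Col6a6 most, with 4 to 13 counts over the WT livers, and the untested collagens.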

Other observations

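Some genes tied to fibre assembly were high in WT replicate 3 alone among the WT livers. Besides Col17a1 and Col8a1, the cross-linking enzyme Lox was at 0.558, 0.962 and 7.50 CPM in WT and at 5.74, 4.99 and 5.26 CPM in Hom livers, and elastin (Eln) was at 4.30, 4.30 and 13.5 CPM in WT and at 22.3, 17.1 and 20.1 CPM in Hom livers. The untested collagens Col10a1, Col9a2, Col11a1 and Col2a1 had 13, 9, 9 and 8 counts in WT replicate 3 and 0 or 1 in the other WT livers. These genes were chosen after their values were seen.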
